A study of Mus musculus with 12 samples.

Results

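The genes described here are 36 regulators of apoptosis, the programmed form of cell death, in mouse cumulus cells, the somatic cells that surround the oocyte in the ovarian follicle. They were looked up by symbol in the array's platform annotation, and each gene was read from the 1 probe set with the highest mean over all 12 arrays. Of the 36 genes, 34 were measured, out of 19938 genes with a named probe set, and Bax and Trp53 were not analysed here. The members were split by role into 9 pro-survival genes, 13 pro-death genes (12 measured), 7 caspases with their activator, 5 death receptors with their adaptor, and 2 genes of the p53 axis (1 measured). All cells came from 129SV females of 21 to 26 days that had received 5 IU of equine chorionic gonadotropin 44 h earlier, and whole cumulus-oocyte complexes were cultured for 8 h at 20 complexes per 50 microlitre drop. Complexes of all groups were collected in the presence of the phosphodiesterase inhibitor cilostamide (1 micromolar), and the oocytes were removed by pipetting before RNA extraction. The FSH/EGF group received follicle-stimulating hormone at 50 mIU/ml and epidermal growth factor at 10 ng/ml in control medium of 293H cells. The GDF9 group received growth differentiation factor 9, a factor that oocytes secrete, at 20 ng/ml, and the labels name no 293H medium for it. The control group had the 293H control medium alone at 0.125% by volume. Each group had 4 arrays, each array held the pooled RNA of 2 of the 8 biological replicates, and p-values therefore measure the spread between such pools.

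Apoptosis proceeds along a mitochondrial and a receptor route. In the mitochondrial route, Bak1, Bax and Bok permeabilise the outer membrane, proteins such as Bcl2l1 and Mcl1 hold them in check, and the BH3-only proteins (Bad, Bid, Bik, Bmf, Hrk, Bbc3, Pmaip1, Bcl2l11) relieve that check. Cytochrome c then assembles with Apaf1 into the apoptosome that activates Casp9, while Diablo displaces the inhibitor Xiap from caspases. In the receptor route, death receptors such as Fas recruit Fadd and Casp8, and Cflar blocks this step. Granulosa and cumulus cells die in this way during follicular atresia, and gonadotropins and oocyte factors are known survival signals for them.

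Expression was read on a log2 scale, on which 1 unit is a doubling of signal, and values ran from 2.92 to 14.29 over all rows. Levels of different genes are not set against each other, because each probe set has its own response. The granulosa and cumulus markers were present, none of the 16 measured lay in the dimmest 40% of rows, and the median of the list stood between 7.44 and 7.74 on the FSH/EGF arrays, between 8.79 and 9.09 on the GDF9 arrays and between 8.91 and 9.03 on the control arrays. Of these 16 markers, 1 was higher and 11 were lower in FSH/EGF than in control cells at the threshold used below, and the part of this shift in the members' differences was not tested. Oocyte markers had a median of 5.91 on control array 4, against 4.77 on each of the other 3 control arrays, and 24 of the 28 measured stood highest among controls on that array. Their median was 4.99 on FSH/EGF array 3, within a range of 4.58 to 4.99 in FSH/EGF and of 4.64 to 4.72 in GDF9. Control array 1 had the lowest quality weight of the 12 arrays, 0.269 against 0.485 to 2.04 for the others, and was the lowest control for 12 and the highest for 12 of the 34 members. The medians of leukocyte, endothelial, theca and stroma, surface epithelium and red blood cell markers stood between 4.80 and 5.74 on all arrays. In FSH/EGF against control cells 1 and 0 of 12 leukocyte, 2 and 1 of 12 endothelial, 1 and 3 of 12 theca and stroma, 2 and 2 of 9 surface epithelium and 0 and 2 of 4 red blood cell markers were higher and lower, and for oocyte markers these counts were 0 and 1 of 28. Single markers differed by more than any member on the log2 scale. In the granulosa and cumulus list these were Fshr at -3.14, Esr2 at -2.29 and Amhr2 at -2.16. In the lists of other cell types they were Cdh5 (endothelial) at 3.18, Krt8 and Krt18 (surface epithelium) at 3.02 and 2.72 and Acta2 (theca and stroma) at -2.34. The part of these markers in the members' differences was not tested. In bulk RNA, fewer cells of a type and less RNA per cell cannot be told apart.

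Treatment with FSH and EGF raised 12 and lowered 4 of the 34 measured apoptosis regulators. The TWEAK receptor gene Tnfrsf12a rose by 2.11 on the log2 scale, the caspase inhibitor Xiap by 1.46, the initiator caspase gene Casp8 by 1.34 and the pore-forming Bak1 by 1.13. The BH3-only gene Bmf and Diablo fell by 1.04 and 0.84. Genes that restrain death and genes that carry it out were both among the genes that rose, and all 4 that fell were on the pro-death list. Differences were tested with limma over all 35399 rows, a gene counted as called at a Benjamini-Hochberg adjusted p under 0.05, and differences are given ± standard error (SE). The 16 called members were 47.1% of those measured, while 36.8% of all genes and 29% of all rows were called in this comparison. The 12 higher members were 35.3%, against 21.9% of all genes called higher, and the 4 lower members were 11.8%, against 14.9% called lower. Because the members were chosen with earlier results of these data known, these shares do not test the list. On 19 members (55.9%) the 4 FSH/EGF arrays did not overlap the 4 control arrays, 14 of them higher and 5 lower, and this held for 41.9% of all genes. The median difference over the members was 0.13, against -0.07 over all genes, and the median absolute difference was 0.33, against 0.21. Renewed quantile normalization gave 11 higher and 7 lower members in place of 12 and 4. The lower members were then not all pro-death genes. The pro-survival Birc6 (-0.35) and the caspase gene Casp2 (-0.31) were among them, beside the pro-death Bcl2l11 (-0.36).

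**Figure D1:**
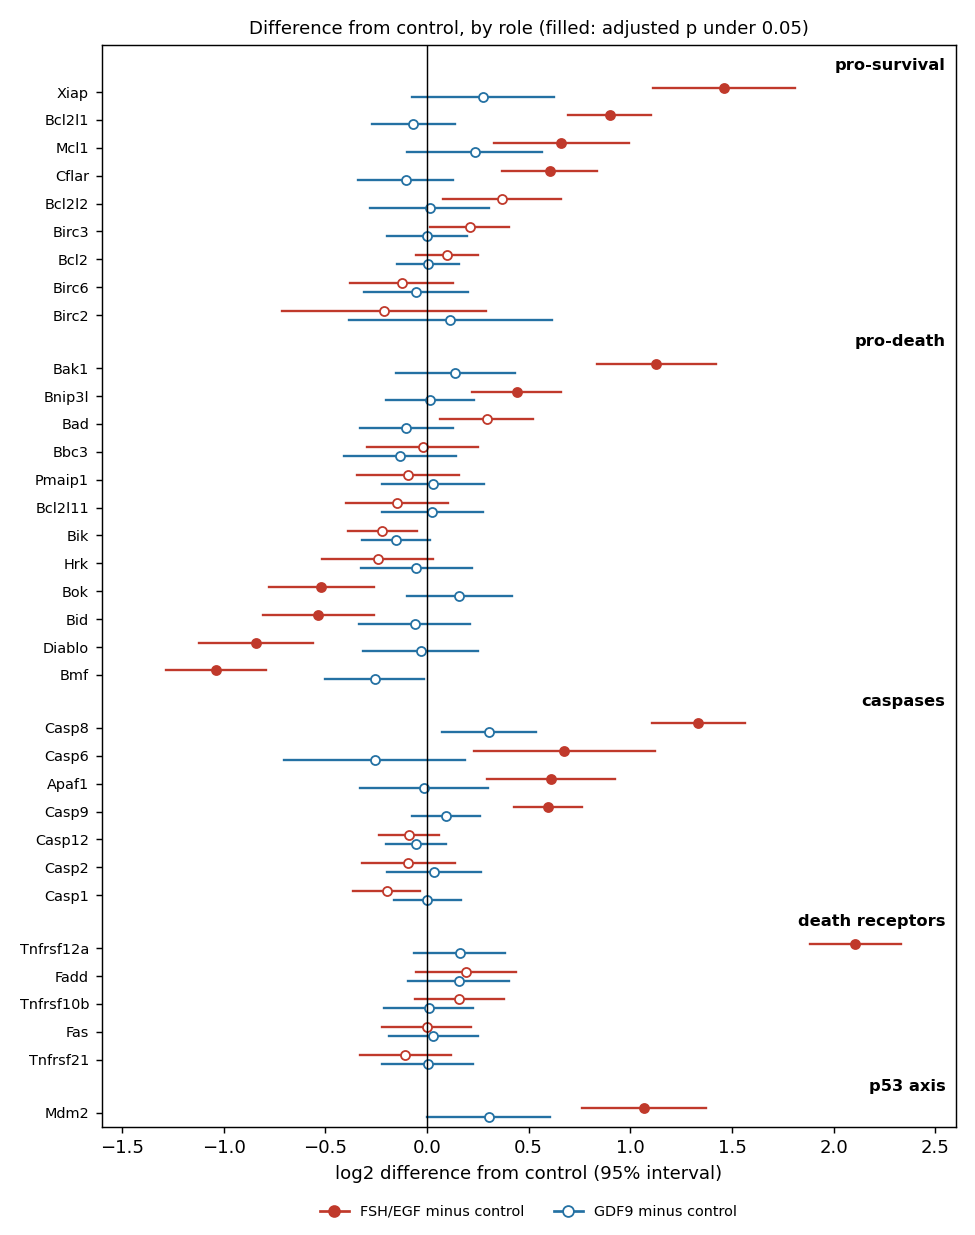
Log2 difference from control (horizontal axis) for each of the 34 measured members, grouped by role, with 95% intervals from limma and filled points where the adjusted p was under 0.05. For FSH/EGF minus control 16 points are filled and run from -1.04 for Bmf to 2.11 for Tnfrsf12a, while for GDF9 minus control 0 are filled and the values stay between -0.26 and 0.31.

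Among the 9 pro-survival genes, 4 rose (44.4%, against 21.9% of all genes), 0 fell (against 14.9% of all genes) and 5 did not pass the test. The median difference was 0.37. Xiap encodes an inhibitor that binds initiator and executioner caspases directly. It read 8.25, 8.05, 7.93 and 8.13 on the FSH/EGF arrays, 7.12, 6.55, 7.06 and 6.89 on the GDF9 arrays and 6.15, 6.88, 6.68 and 6.80 on the control arrays. All 4 FSH/EGF arrays lay above all others, and the difference from control of 1.46 ± 0.16, or 2.76-fold, had an adjusted p of 1.9e-05 (limma). Bcl2l1 encodes Bcl-xL, which sequesters pore-forming proteins at the mitochondrion. Its log2 values were 7.34, 7.25, 7.27 and 7.47 in FSH/EGF, 6.58, 6.26, 6.26 and 6.36 in GDF9, and 6.24, 6.53, 6.43 and 6.52 in control cells. Again the FSH/EGF arrays did not overlap the others, with a rise over control of 0.90 ± 0.09, or 1.86-fold (adjusted p = 1.18e-05, limma).

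Mcl1, the gene of a short-lived Bcl2 relative, stood at 9.65, 9.78, 9.47 and 9.98 in FSH/EGF, at 9.60, 9.13, 8.99 and 9.45 in GDF9 and at 9.01, 9.07, 8.83 and 9.33 in control cells. Every control array lay below the FSH/EGF arrays, which overlapped the GDF9 arrays. Its rise over control was 0.66 ± 0.15, or 1.58-fold (adjusted p = 0.0058, limma), and was 0.43 after renewed quantile normalization (adjusted p = 0.0409). Cflar encodes c-FLIP, a Casp8 relative without protease activity that blocks the death receptor complex. Its values were 7.29, 7.17, 7.40 and 7.36 in FSH/EGF, 6.71, 6.37, 6.51 and 6.79 in GDF9, and 6.47, 6.73, 6.86 and 6.74 in control cells. No other array reached the FSH/EGF arrays, and the rise over control was 0.60 ± 0.11, or 1.52-fold (adjusted p = 0.00104, limma). Its other 2 probe sets gave 0.94 ± 0.22 and 0.77 ± 0.12, with adjusted p-values of 0.006 and 0.000439.

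Bcl2l2, which encodes Bcl-w, had a difference of 0.37 ± 0.13 with an adjusted p of 0.0562 (limma), although its FSH/EGF and control arrays did not overlap. It passed the threshold in 8 of 25 alternative settings, and the highest adjusted p over the settings was 0.173 (limma). Among the 8 were the fits without GDF9 array 1 and without GDF9 array 2 (adjusted p = 0.00423 and 0.0481). The difference stayed at 0.37 there, because GDF9 arrays enter this comparison only through the shared estimate of the spread. For Bcl2 itself, the founding member of the family, the difference was 0.10 (adjusted p = 0.305, limma). Birc2 and Birc3 encode ubiquitin ligases of tumour necrosis factor signalling, and their differences were -0.21 ± 0.23 and 0.21 (adjusted p = 0.517 and 0.102, limma). The Birc2 difference was -0.43 without control array 1, -0.12 without control array 2, -0.11 without control array 3 and -0.12 without FSH/EGF array 3, and it passed the threshold in none of these. Birc3 passed it when control arrays 1 and 4 were both left out (0.32, adjusted p = 0.0367). Birc6, a giant ubiquitin-conjugating inhibitor of apoptosis, had a difference of -0.12 (adjusted p = 0.448, limma).

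Of the 12 measured pro-death genes, 2 rose (16.7%, against 21.9% of all genes), 4 fell (33.3%, against 14.9%) and 6 did not pass the test. The median difference was -0.18. Bak1, which encodes a pore-forming protein of the outer mitochondrial membrane, had log2 values of 8.57, 8.48, 8.88 and 8.70 in FSH/EGF, of 7.58, 7.49, 7.87 and 7.73 in GDF9 and of 7.70, 7.14, 7.69 and 7.59 in control cells. The FSH/EGF arrays lay above all 8 other arrays, and the rise over control was 1.13 ± 0.13, or 2.19-fold (adjusted p = 3.93e-05, limma). Bnip3l encodes a receptor for the removal of mitochondria by autophagy. It rose by 0.44 ± 0.10, or 1.36-fold (adjusted p = 0.00527, limma), its FSH/EGF arrays at 10.32 to 10.45 and its control arrays at 9.90 to 10.02, and its other probe set gave 0.54 ± 0.10.

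The 4 pro-death genes that fell were Bmf, Diablo, Bid and Bok. Bmf encodes a BH3-only protein tied to the cytoskeleton. It read 6.21, 6.08, 5.99 and 5.87 in FSH/EGF, 6.67, 6.77, 6.81 and 7.03 in GDF9 and 6.99, 7.00, 6.94 and 7.37 in control cells. Every FSH/EGF array was below every other array, with a fall of 1.04 ± 0.11 from control (2.05-fold lower, adjusted p = 1.73e-05, limma). Diablo encodes the mitochondrial protein, also called Smac, that frees caspases from Xiap. Its values were 6.38, 6.49, 6.17 and 6.09 in FSH/EGF, 7.41, 6.90, 6.97 and 7.10 in GDF9 and 6.90, 7.30, 7.11 and 7.19 in control cells. These groups did not overlap either, and Diablo fell by 0.84 ± 0.13 (1.79-fold lower, adjusted p = 0.00033, limma). So Xiap and the gene of its antagonist Diablo moved in opposite directions.

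Bid, whose product carries the signal of Casp8 to mitochondria, stood at 5.26, 5.28, 5.36 and 5.32 in FSH/EGF, at 5.68, 5.77, 5.91 and 5.76 in GDF9 and at 6.24, 5.49, 5.84 and 5.78 in control cells. The 4 FSH/EGF arrays were the lowest, and control array 1 was the highest, with a fall of 0.53 ± 0.13 (adjusted p = 0.00656, limma). Over 25 alternative settings the Bid difference lay between -0.65 and -0.36, with adjusted p-values up to 0.0465 (limma). Bok, a pore-forming relative of Bak1 first described in the ovary, stood at 8.56, 8.75, 8.65 and 8.29 in FSH/EGF, at 9.22, 9.13, 9.36 and 9.26 in GDF9 and at 9.33, 8.83, 9.15 and 9.02 in control cells. Its FSH/EGF arrays were below all others, and it fell by 0.52 ± 0.12 (adjusted p = 0.0054, limma). When control array 1, control array 4 and FSH/EGF array 3, all described above, were left out, Bok, Bnip3l and Casp6 no longer passed the threshold (-0.45, 0.41 and 0.73, with adjusted p-values of 0.0588, 0.0789 and 0.0553) and Birc3 did (0.37, adjusted p = 0.0319), so that 11 members were higher and 3 lower. When control arrays 1 and 4 alone were left out, Casp6 was lost (0.65, adjusted p = 0.0534) and Birc3 was gained (0.32, adjusted p = 0.0367), with 12 higher and 4 lower.

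The other 6 pro-death genes had differences between -0.24 and 0.29. Bad, a BH3-only protein that survival kinases inactivate by phosphorylation, differed by 0.29 ± 0.11 (adjusted p = 0.0548, limma). Bik differed by -0.22 ± 0.08 (adjusted p = 0.0503, limma). Neither gene's FSH/EGF arrays overlapped its control arrays, although for Bad the lowest FSH/EGF array (6.769) and the highest control array (6.766) nearly met. Both passed the threshold without GDF9 array 1 (adjusted p = 0.0486 for Bad and 0.0261 for Bik) and without GDF9 array 2 (0.0309 and 0.0332), Bad also without control array 1 (0.37, adjusted p = 0.0187) and Bik without FSH/EGF array 4 (-0.25, adjusted p = 0.047). In the other direction, Bad stood at 0.18 after renewed quantile normalization (adjusted p = 0.328) and Bik at -0.14 with equal array medians (adjusted p = 0.148). Bcl2l11, which encodes Bim, differed by -0.15 (adjusted p = 0.355, limma) and Hrk by -0.24 (adjusted p = 0.167). Bbc3 and Pmaip1, which encode the p53-induced BH3-only proteins Puma and Noxa, differed by -0.02 and -0.09, and neither passed the test.

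Of the 7 caspases and their activator, 4 rose (57.1%, against 21.9% of all genes), 0 fell (against 14.9% of all genes) and 3 did not pass the test. The median difference was 0.60. Casp8, the initiator of the receptor route, read 7.32, 7.40, 7.38 and 7.19 in FSH/EGF, 6.44, 6.12, 6.30 and 6.32 in GDF9 and 5.70, 5.97, 6.13 and 6.15 in control cells. The FSH/EGF arrays lay above all others, and the rise over control was 1.34 ± 0.11, or 2.52-fold (adjusted p = 1.01e-06, limma). Casp9, the initiator of the mitochondrial route, read 7.96, 8.07, 8.12 and 7.88 in FSH/EGF, 7.56, 7.48, 7.59 and 7.39 in GDF9 and 7.36, 7.42, 7.52 and 7.35 in control cells. It rose by 0.60 ± 0.08, or 1.51-fold (adjusted p = 7.56e-05, limma), and by 0.38 after renewed quantile normalization. Apaf1, the scaffold on which Casp9 is activated, read 8.90, 8.90, 8.79 and 8.99 in FSH/EGF, 8.51, 8.10, 8.08 and 8.40 in GDF9 and 7.85, 8.38, 8.33 and 8.58 in control cells. The FSH/EGF arrays were the highest for both genes, and Apaf1 rose by 0.61 ± 0.14, or 1.53-fold (adjusted p = 0.00685, limma), and by 0.39 after renewed quantile normalization.

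Casp6, an executioner caspase, stood at 7.36, 7.60, 7.19 and 7.49 in FSH/EGF, at 6.81, 6.11, 6.27 and 6.72 in GDF9 and at 6.29, 7.05, 6.47 and 7.13 in control cells. The control arrays were spread widely, and the highest of them was just below the lowest FSH/EGF array. Casp6 rose by 0.68 ± 0.21, or 1.6-fold (adjusted p = 0.0267, limma). It missed the threshold in 8 of 25 alternative settings, among them without control array 1 (0.53, adjusted p = 0.0699), without control array 3 (0.59, 0.0778), and without FSH/EGF array 1 (0.69, 0.0514), array 2 (0.61, 0.0711) or array 4 (0.65, 0.0615). Casp2 and the inflammatory caspase gene Casp1 differed by -0.09 and -0.20, and Casp12 by -0.09, with adjusted p-values of 0.538, 0.0709 and 0.351 (limma). Casp1 and Casp12 lay in the dimmest 40% of rows.

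Of the 5 death receptor genes, 1 rose (20%, against 21.9% of all genes), 0 fell (against 14.9% of all genes) and 4 did not pass the test. The median difference was 0.16. Tnfrsf12a encodes Fn14, the receptor of the cytokine TWEAK, which has no death domain of its own. It read 9.96, 10.11, 10.24 and 10.07 on the FSH/EGF arrays, 8.18, 8.17, 8.06 and 8.17 on the GDF9 arrays and 8.04, 7.79, 7.84 and 8.28 on the control arrays. All 4 FSH/EGF arrays stood far above the other 8, and the rise over control of 2.11 ± 0.10, or 4.31-fold, was the largest difference among the members (adjusted p = 1.29e-08, limma). Fas, the receptor of Fas ligand, lay in the dimmest 40% of rows and differed by 0.00 (adjusted p = 0.991, limma). Its adaptor Fadd differed by 0.19, Tnfrsf10b, the mouse receptor of TRAIL, by 0.16 and Tnfrsf21, a receptor with a death domain, by -0.11, with adjusted p-values of 0.225, 0.255 and 0.462.

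In the p53 axis, Mdm2 was measured, the gene of the ubiquitin ligase that targets p53 for degradation. Its values were 8.57, 8.29, 8.36 and 8.44 in FSH/EGF, 8.08, 7.26, 7.58 and 7.68 in GDF9 and 7.36, 7.44, 7.19 and 7.40 in control cells. The FSH/EGF arrays were the highest and the control arrays narrowly grouped, and Mdm2 rose by 1.07 ± 0.14, or 2.1-fold (adjusted p = 8.35e-05, limma).

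**Figure D2:**
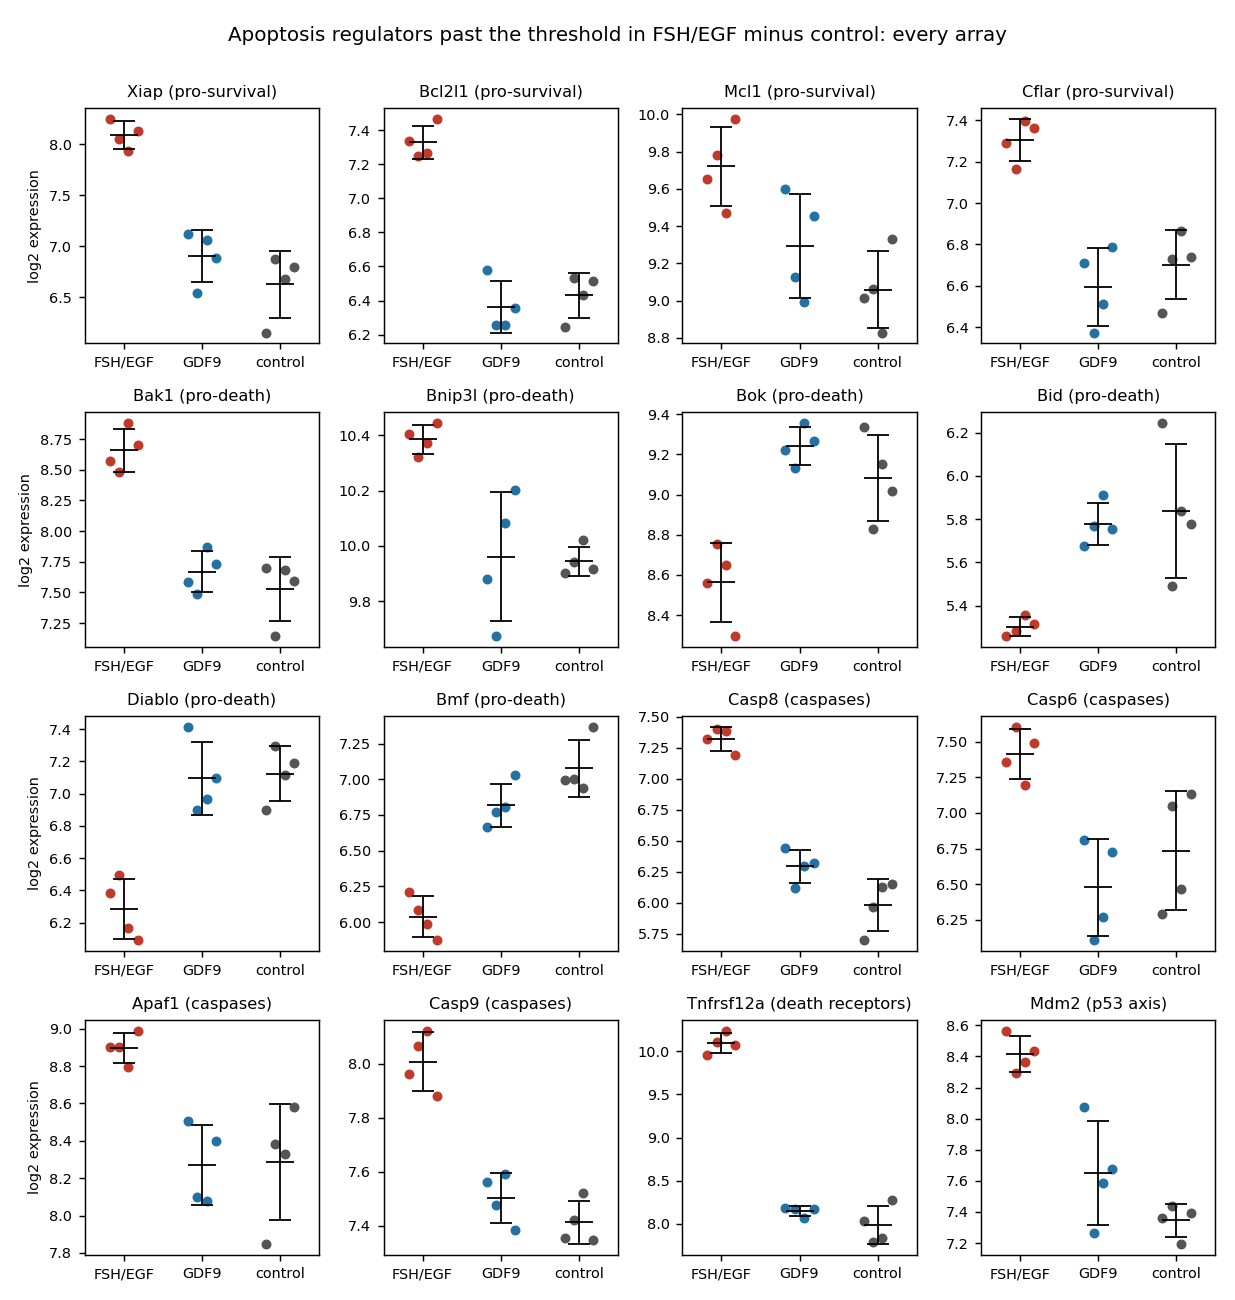
Log2 expression (vertical axis, its own range in each panel) of the 16 members past the threshold in FSH/EGF minus control, with 1 point per array, the group mean as a bar and the SD as whiskers (n = 4 arrays per group). In each panel the FSH/EGF points do not overlap the control points, while the GDF9 points overlap the control points.

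The promoters of 3 called members with a single annotated start are shown because they include the largest rise (Tnfrsf12a), the p53 ligase gene (Mdm2) and the Xiap antagonist gene that fell (Diablo). Each window runs 5′ to 3′ from 250 bases before to 50 bases after the gene start in RefSeq (GRCm38.p6), in lower case with the letters of the searched motifs in capitals.
Tnfrsf12a, chr17:23677400-23677699, minus strand: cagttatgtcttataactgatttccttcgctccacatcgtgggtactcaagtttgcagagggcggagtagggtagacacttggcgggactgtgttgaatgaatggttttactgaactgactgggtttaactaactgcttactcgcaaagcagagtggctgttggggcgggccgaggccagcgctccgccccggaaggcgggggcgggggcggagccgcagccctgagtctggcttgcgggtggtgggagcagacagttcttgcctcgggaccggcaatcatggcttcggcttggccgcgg
Mdm2, chr10:117710709-117711008, minus strand: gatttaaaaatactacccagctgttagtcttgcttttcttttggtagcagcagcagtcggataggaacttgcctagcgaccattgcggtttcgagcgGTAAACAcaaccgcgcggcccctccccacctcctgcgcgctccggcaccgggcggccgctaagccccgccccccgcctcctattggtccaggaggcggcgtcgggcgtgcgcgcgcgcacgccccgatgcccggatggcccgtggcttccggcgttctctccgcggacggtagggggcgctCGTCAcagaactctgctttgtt
Diablo, chr5:123524115-123524414, minus strand: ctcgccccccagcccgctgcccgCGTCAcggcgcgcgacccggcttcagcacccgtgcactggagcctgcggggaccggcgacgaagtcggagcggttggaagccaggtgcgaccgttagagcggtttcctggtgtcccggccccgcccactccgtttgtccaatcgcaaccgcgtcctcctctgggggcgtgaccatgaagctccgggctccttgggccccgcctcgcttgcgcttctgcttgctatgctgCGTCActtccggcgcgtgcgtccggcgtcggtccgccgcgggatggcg
The motifs searched on both strands were the cAMP response element (TGACGTCA), its core (TGACG, which also matches inside the full element), the AP-1 element (TGANTCA), the FOXO element (GTAAACA) and the NF-kB element. The Tnfrsf12a window held none of these letter strings. Bak1 and Casp8, which also have a single annotated start, differed more from control than Mdm2 and Diablo. Their windows are not shown and held none of these letter strings either. The Mdm2 window held the FOXO letters at bases 98 to 104 and a TGACG core on the reverse strand at bases 279 to 283. The Diablo window held TGACG cores at bases 24 to 28 and 253 to 257.

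RefSeq windows were used for 30 of the 34 members, 41 windows in all. Windows on 1 chromosome were left out beforehand, for members and for all genes alike. The TGACG core was found for 9 of these 30 members, and for 23.1% of all 27025 genes with a window (20.8% of all 32851 windows). The NF-kB element was found for 5 members and 9.55% of genes, the FOXO element for 3 members and 4.05% of genes, and the AP-1 and full cAMP elements for 1 member each and 8.97% and 2.03% of genes. Among the 11 members that rose and had a window, the TGACG core was found for 3, the NF-kB element for 2 and the FOXO element for 1, and among the 4 that fell it was found for 2, 1 and 0. These matches describe letters in a window and do not show binding.

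Treatment with GDF9 changed 0 of the 34 apoptosis regulators past the threshold, and 0% of all genes were called in this comparison (limma). The differences from control lay between -0.26 and 0.31, with a median of 0.01, against -0.02 over all genes. At an unadjusted p under 0.05 there were 2 members, Casp8 and Bmf, and 987 of 19938 genes. On 0 of the 34 members did the GDF9 and control arrays stand apart without overlap, as they did for 2.32% of all genes. Casp8 was higher by 0.31 ± 0.11, with a 95% interval of 0.08 to 0.54, an unadjusted p of 0.0132 and an adjusted p of 0.971 (limma). Bmf was lower, at -0.26 ± 0.11 (unadjusted p = 0.0411, adjusted p = 0.971, limma), and at -0.16 without control array 4. Against the same control arrays, the FSH/EGF differences of these genes were 1.34 and -1.04.

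The members with the smallest p in the other role groups were Xiap, with a GDF9 difference of 0.28 ± 0.16, Tnfrsf12a, with 0.16, and Mdm2, with 0.30 ± 0.14. The adjusted p of each was 0.971 (limma). Without control array 1, which at 6.15 was the lowest control for Xiap, the Xiap difference was 0.12. Without GDF9 array 1, which at 8.08 was the highest of that group for Mdm2, the Mdm2 difference was 0.16. The 95% intervals of the 34 members reached from -0.70, for Casp6, to 0.63, for Xiap.

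Set against GDF9, FSH/EGF treatment left 12 apoptosis regulators higher and 4 lower, while 18.6% of all genes were called higher and 10.5% lower. The comparison shares the FSH/EGF arrays with the one against control. Tnfrsf12a was higher by 1.95 (adjusted p = 2.66e-08, limma), Xiap by 1.19 (0.000129), Casp8 by 1.03 (1.18e-05), Bak1 by 0.99 and Bcl2l1 by 0.97 (6.8e-06). Casp6 was higher by 0.93 (adjusted p = 0.00494), Mdm2 by 0.76 (0.00133), Cflar by 0.71, Apaf1 by 0.63 (0.00682), Casp9 by 0.50 and Bnip3l by 0.43 (0.00759). The lower members were Diablo at -0.81, Bmf at -0.78 (adjusted p = 0.000222), Bok at -0.68 and Bid at -0.48 (0.0153, limma).

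By role, 3 of 9 pro-survival genes (33.3%), 3 of 12 pro-death genes (25%) and 4 of 7 caspases with Apaf1 (57.1%) were higher in FSH/EGF than in GDF9 cells. So were 1 of 5 receptor genes (20%) and Mdm2, against 18.6% of all genes. The 4 lower genes were pro-death genes (33.3% of the 12, against 10.5% of all genes). Bad passed the threshold here, with 0.39 and an adjusted p of 0.0163 (limma), and missed it without GDF9 array 4 (0.34, adjusted p = 0.0516). Mcl1 did not pass it, with 0.43 and an adjusted p of 0.0651, but did so without GDF9 array 1 (0.53, 0.0253) and without FSH/EGF array 3 (0.51, 0.045). Renewed quantile normalization lowered the Mcl1 difference to 0.24 (adjusted p = 0.286). In that setting the pro-death Bcl2l11 (-0.33, adjusted p = 0.0299) and the caspase gene Casp2 (-0.29, 0.0314) were also lower (limma). The second probe set of Birc2 was lower by 0.33 in FSH/EGF than in GDF9 cells (adjusted p = 0.00577), while the probe set used here did not pass the test.

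**Figure D3:**
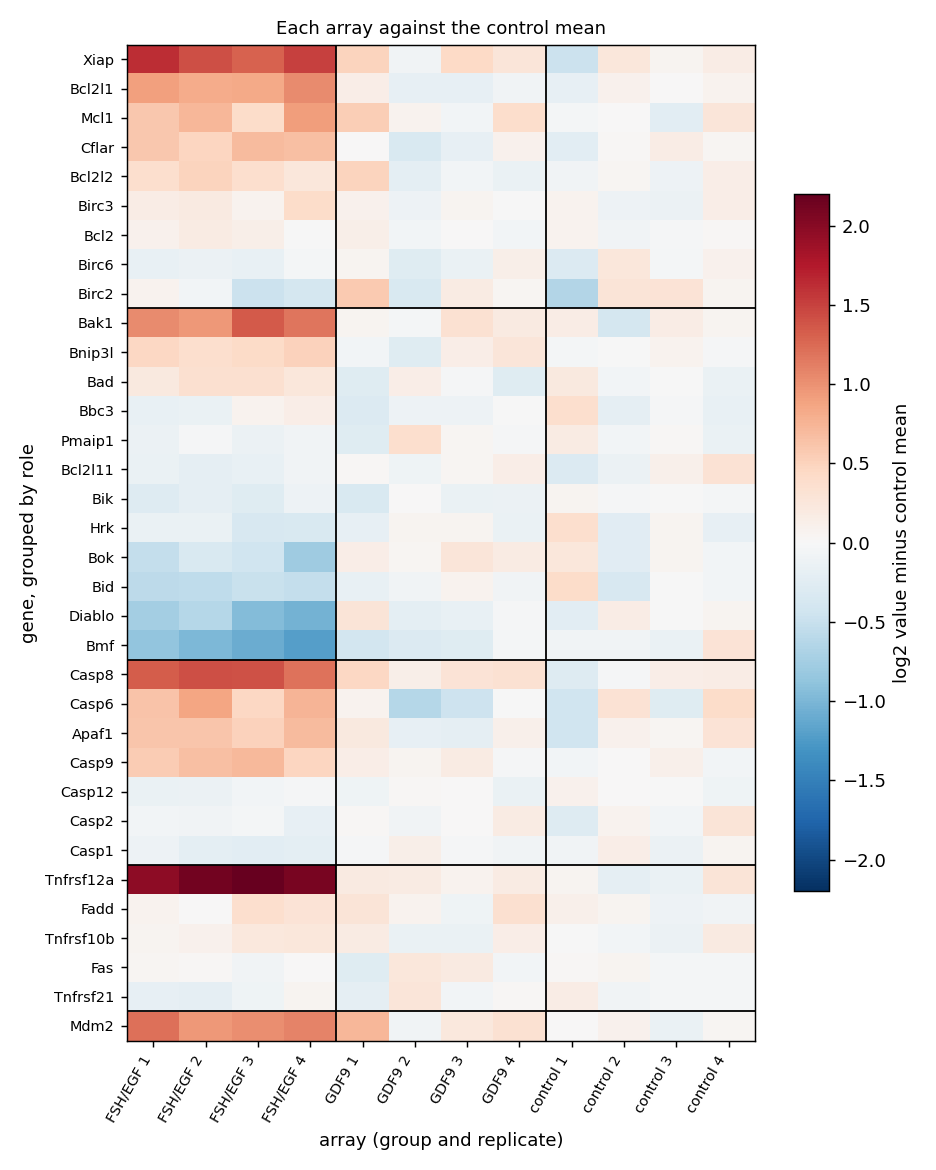
Log2 value minus the control mean (colour scale) of the 34 measured members (rows, grouped by role) on each of the 12 arrays (columns, FSH/EGF, GDF9 and control). The FSH/EGF columns hold the strongest colours, red for Tnfrsf12a, Xiap, Casp8 and Bak1 and blue for Bmf and Diablo. Control array 1 shows the widest deviations among the controls. Its deviation from the mean of the other control arrays, which is not the value drawn, had an SD over members of 0.341.

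Genes around the members were read from 5 further lists of 128 different genes, 112 of them measured. Under FSH/EGF, 12 rose and 5 fell of 24 regulators of BH3-only genes and survival kinases, and 12 rose and 6 fell of 28 genes of death ligands, receptors and tumour necrosis factor signalling. In the p53 list 6 rose and 3 fell of 27, among other caspase and execution genes 3 rose and 1 fell of 20, and among other Bcl2 family genes and partners 3 rose and 1 fell of 13. The called genes made up 70.8%, 64.3%, 33.3%, 20% and 30.8% of these lists in that order, against 36.8% of all genes (21.9% higher and 14.9% lower). The lists were chosen with earlier results of these data known, so that these shares do not test the lists. The medians of these lists, in the same order, were 0.26, 0.27, 0.14, -0.05 and 0.04, against -0.07 over all genes. With GDF9, 0 genes of each list passed the threshold.

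In the list of regulators and kinases, the immediate early survival gene Ier3 averaged 10.29 ± 0.32 in FSH/EGF and 6.10 ± 0.13 in control cells (SD, n = 4 each), a rise of 4.19 ± 0.16 (adjusted p = 1.65e-09, limma). The growth regulator gene Myc fell by 2.76 ± 0.21, to 6.81 ± 0.38 in FSH/EGF against 9.57 ± 0.24 in control cells (adjusted p = 5.56e-07). Mapk10, which encodes a JNK kinase, fell by 2.51 ± 0.13 (adjusted p = 2.22e-08), while its second, dimmer probe set gave -0.24 (adjusted p = 0.0525).

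In the receptor list, Tnfrsf1a, the main receptor of tumour necrosis factor, rose by 1.70 ± 0.09 (adjusted p = 3.84e-08, limma). The adaptor gene Traf5 fell by 1.36 ± 0.13 and the ectodysplasin A2 receptor gene Eda2r by 1.28 ± 0.21 (adjusted p = 7.07e-06 and 0.000596). In the p53 list, Ddit4, an inhibitor of mTOR signalling, rose by 2.73 ± 0.14 and the kinase gene Plk3 by 1.80 ± 0.09, while Siva1, a partner of tumour necrosis factor receptors, fell by 0.72 ± 0.11 (adjusted p = 1.67e-08, 1.48e-08 and 0.000241). Among execution genes, the oxidoreductase gene Aifm2 rose by 1.93 ± 0.11 (adjusted p = 3.88e-08). Septin4, with an isoform that antagonises Xiap, fell by 1.14 ± 0.08 (adjusted p = 2.94e-07), and its isoforms were not told apart here. Cycs, which encodes cytochrome c, rose by 0.94 ± 0.23 (adjusted p = 0.00864), by 0.90 on a second probe set while its dim remaining probe set gave a difference of the other sign (-0.15, adjusted p = 0.344). In the Bcl2 family list, Tmbim6, an endoplasmic reticulum protein also called Bax inhibitor, rose by 0.94 ± 0.13, Bnip2 rose by 0.80 ± 0.18, and the mitophagy receptor gene Bnip3 fell by 0.54 ± 0.14 (adjusted p = 0.000144, 0.00538 and 0.0117), whereas its relative Bnip3l rose.

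**Figure D4:**
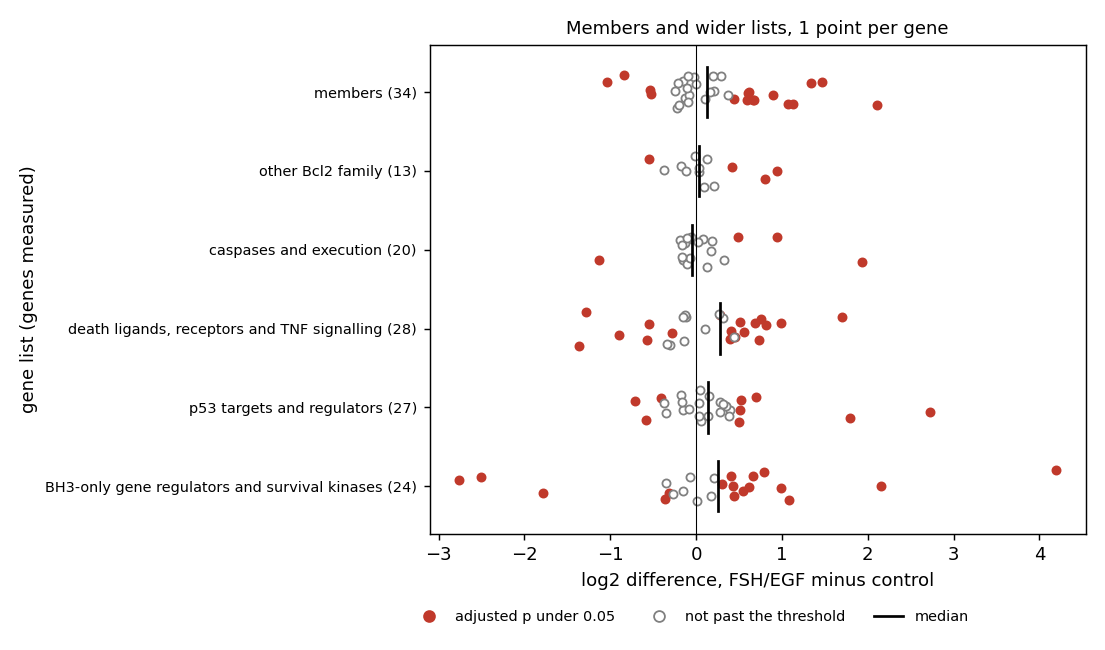
Log2 difference of FSH/EGF minus control (horizontal axis) for the 34 members and the genes of the 5 further lists, with 1 point per gene, filled where the adjusted p was under 0.05, and the list median as a vertical bar. Filled points lie on both sides of 0 in each list, and the range is widest for regulators and kinases, from Myc at -2.76 to Ier3 at 4.19.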

How the data were processed

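Cumulus cell RNA was measured on 12 Affymetrix arrays, 4 per group. The deposited values were log2 expression values that the authors had normalized. Per the submitters' processing notes, the tools were GCOS, Partek and RMA, with no role or version stated. The build and the annotation's version were not given in the sources used here. Of 35399 rows, 21789 had 1 gene symbol in the platform annotation, 1621 had several and 11989 were not listed. The 34 measured members kept their symbols after a match by Entrez identifier, and 3 of them had more than 1 probe set.

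Groups were compared with limma 3.58.1 in R 4.3.3 on the deposited log2 values as they stood: a mean for each group fitted on the 12 arrays together, with moderated variances, two-sided tests and Benjamini-Hochberg adjustment over all rows, with a threshold of 0.05. The fit was tested on simulated data. Full array values were given for members called against control with a log2 difference of at least 0.5 and for the smallest p per role in the GDF9 comparison. The wider lists were named by their 3 largest called differences. Alternatives were other variance models, array weights, a filter on the 40% dimmest rows, renewed quantile or median scaling, other probe set rules, a replicate block and leaving out arrays. Members, lists and role groups were chosen with earlier results of these data known. Arrays give no read depth, and their number limits the precision. Array medians ran from 5.41 to 5.53, and correlations within groups from 0.971 to 0.995.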

Additional observations from a re-analysis of the deposited data

Results flagged for a closer look

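Among the 102 sets of 4 arrays tested (34 members in 3 groups), 2 had an array far from the other 3 by Dixon's test, which chance does in about 1 of 20. Bmf read 7.37 on control array 4, against 6.94 to 7.00 on the other control arrays, a gap of 0.843 of the range. That array is also the one with the highest oocyte marker median, and the part of those markers in this value was not tested. Tnfrsf12a read 8.06 on GDF9 array 3, against 8.17 to 8.18 on the other GDF9 arrays, a gap of 0.908 of a narrow range.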

How the results depend on the processing

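Under 25 alternative settings 0 called differences changed sign, and 13 of the 16 members called in FSH/EGF minus control passed the threshold in every one. The exceptions were Casp6, Bok and Bnip3l. Casp6 missed it in 8 settings, including renewed quantile normalization (0.52, adjusted p = 0.0896) and the fit without control arrays 1 and 4 (0.65, 0.0534). Leaving out 1 array at a time gave 15 to 19 members called in FSH/EGF minus control (11 to 14 higher, 4 to 5 lower), 15 to 18 in FSH/EGF minus GDF9 (11 to 14 higher, 4 lower) and 0 in GDF9 minus control. The other settings gave 14 to 20, 16 to 18 and 0. Renewed quantile normalization raised the members called lower against control to 7, adding Bcl2l11 (-0.36, adjusted p = 0.0159), Casp2 (-0.31, 0.0178) and Birc6 (-0.35, 0.0165), and the cause was not tested. In FSH/EGF minus GDF9 that setting gave 11 higher and 6 lower, and Bad was lost (0.30, adjusted p = 0.103). Over all rows, FSH/EGF minus control had 5856 higher and 4413 lower, 6637 and 2588 with equal array medians, and 4758 and 4327 with renewed quantiles, while the median of all rows was -0.06, 0.01 and -0.04. Same-numbered arrays had correlations of -0.389 to 0.221 in their deviations from the group means, 7 of 12 over 0.1. Differently numbered arrays were not compared in this way, so that these values cannot decide whether the numbers pair the samples. With a replicate block, 16 members were called against control (12 higher, 4 lower), 17 against GDF9 (13 higher, 4 lower, Mcl1 added) and 0 in GDF9 minus control. The dim filter left out Casp1, Casp12 and Fas. Detection calls were not used here, so that differences of dim genes have no lower bound on signal.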
